A study of Schizosaccharomyces pombe with 6 samples.

Results

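The transcriptome described here is that of wild-type (WT) *Schizosaccharomyces pombe*, the fission yeast, after 4 hours without nitrogen. It rests on the 2 WT libraries of a series of 6, chosen by their labels alone, and on their reads over all 7001 gene identifiers of the table that holds them. The cells were the heterothallic strain labelled h- 972, which carries no mutation named in the labels, and were cultured in nitrogen-free minimal medium (MM-N) at 25 °C. The labels give growth before the shift in a rich yeast extract medium (YES) and in minimal medium with thiamine, and washes with thiamine. The study's RNAseq methods give minimal medium (EMM2) and name no thiamine. They describe WT, *igo1* deletion and *ppk18* *cek1* deletion cells, deposited as another series, and name no *pab1* repression. Whether they cover the libraries used here is not given in the sources used here. The other libraries of the present series carry an *igo1* deletion, alone or with *pab1* repressed, and are not compared here. The WT libraries are labelled as biological replicates, and held 14791399 and 16077159 reads on genes. WT cells before the shift were not analysed here, so every value is a level at 4 hours and none is a response to the loss of nitrogen.

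Without nitrogen, a fission yeast cell divides without much growth, arrests in G1 and becomes quiescent unless a partner of the other mating type is near. It then lives on what it can take up or break down, through permeases and enzymes that release nitrogen from purines, amines and peptides, and through autophagy and proteolysis in the vacuole. TORC1 is inactive in this state, and the Greatwall-Endosulfine switch inhibits the phosphatase PP2A/B55, the pathway the study addressed by RNAseq.

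The single genes with most reads encode enzymes of sugar breakdown, a vacuolar protease, an oligopeptide transporter, a proton pump, a cell surface protein and an enzyme of thiamine synthesis. The share of reads on *tdh1*, the gene of glyceraldehyde-3-phosphate dehydrogenase, was 1.97% in replicate 1 and 1.71% in replicate 2, more than on any other gene in both libraries. Next came *isp6*, a vacuolar serine protease, with 1.49% and 1.43%, and *isp4*, which encodes an oligopeptide transporter of the plasma membrane, with 1.22% and 1.40%. *pma1*, the proton pump of the plasma membrane, held 1.19% and 1.24%. *pfl2*, which encodes a cell surface protein, held 1.27% and 1.12%, and *nmt1*, an enzyme of thiamine synthesis, 1.12% and 1.23%. *isp6* was second in both libraries, and *isp4*, *pma1* and *nmt1* kept that order, while *pfl2* changed its place among them.

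A small set of genes supplied much of the RNA. The 10 genes of highest mean share held 11.8% of the reads, the first 100 held 35.8% and the first 1000 held 73.8%. As few as 270 genes held 50% of the reads, with 268 in replicate 1 and 272 in replicate 2, and 2309 genes held 90%. Of the 30 genes of highest share in either library alone, 29 were common to both. A detection limit of at least 10 reads in both libraries was met by 5835 identifiers (83.3%), among them 4947 of the 5111 nuclear coding genes.

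**Figure D1:**
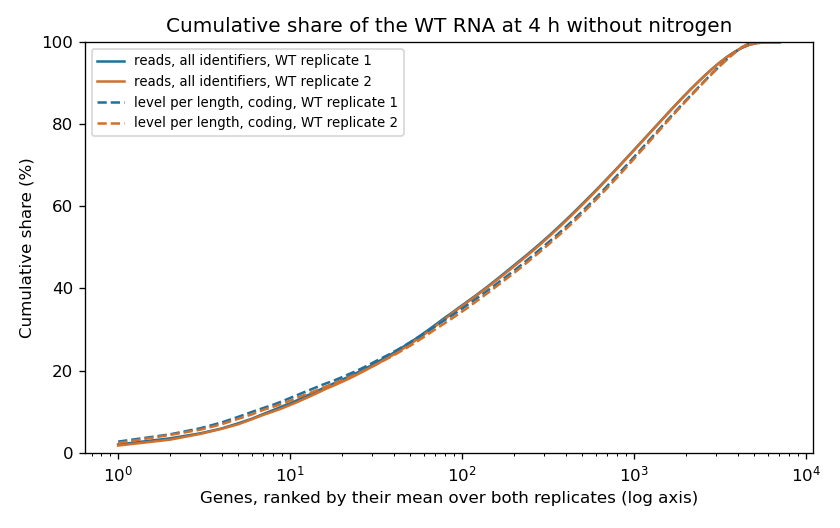
Cumulative share (%) of the reads of all 7001 identifiers (solid lines) and of the level per length of the 5111 nuclear coding genes (dashed lines) against gene rank on a log axis, for each WT replicate. The lines of the replicates lie close together, and the first 100 genes reach 35.8% of the reads.

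The shares above favour long genes, so the levels that follow are per length. The level is a computed TPM, the reads of a gene divided by its summed exon length in the ASM294v3 reference and scaled to a sum of 1000000 in each library. The median coding gene had a level of 67.5, and 10% of the coding genes lay above 319. *tdh1* was at 24410 and 21318 in the replicates, 339-fold above the median coding gene as a mean. The 30 coding genes of highest level carried 21.8% and 21.0% of the summed coding level, and 11 of them belong to glycolysis and alcoholic fermentation. One of them, SPAPB18E9.05c, which encodes an uncharacterized protein, was at 6492 and 6695 on a reference model of 273 bases with no untranslated part, so its level per length rests on that short model.

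**Figure D2:**
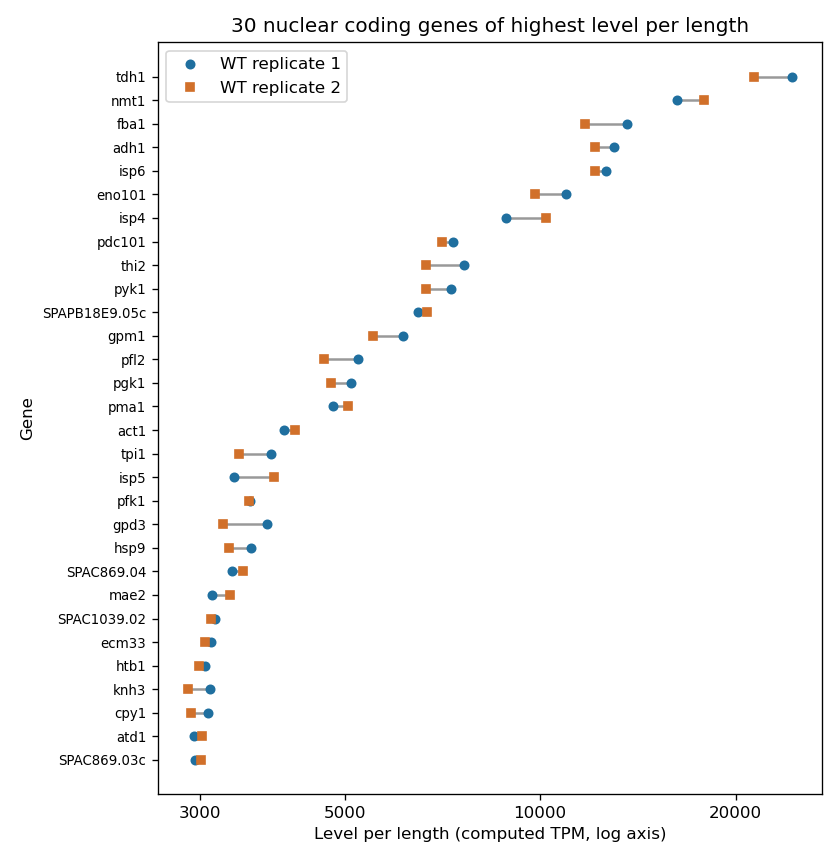
Level per length (computed TPM, log axis) of the 30 nuclear coding genes with the highest mean, with a circle for WT replicate 1 and a square for replicate 2. *tdh1* stands highest in both libraries, at 24410 and 21318, and the gap between the replicates of a gene is small beside the range of the genes.

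The glycolytic mRNAs were high along nearly the whole pathway. Hexokinase, the entry step, is encoded by *hxk2*, at 1308 and 1235, and by *hxk1*, at 551 and 546. Phosphofructokinase (*pfk1*) was at 3579 and 3563, and aldolase (*fba1*) at 13592 and 11719. Among the later enzymes, enolase *eno101* was at 10968 and 9830, pyruvate kinase *pyk1* at 7288 and 6684, and phosphoglycerate kinase *pgk1* at 5110 and 4773. The last steps to ethanol were served by pyruvate decarboxylase *pdc101*, at 7340 and 7075, and alcohol dehydrogenase *adh1*, at 13009 and 12165. All these mRNAs lay above 319, the limit of the top 10%, in both replicates.

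Genes for further isoenzymes of these steps ranged widely. *gpd3*, the other glyceraldehyde-3-phosphate dehydrogenase gene, was at 3802 and 3247. The second enolase gene, *eno102*, was at 67.3 and 80.04, the decarboxylase gene *pdc202* at 14.1 and 13.6, and *pdc102* had 0 reads in both libraries. In all, 17 of the 19 listed genes exceeded the coding median and 14 stood in the top 10%, with a list median of 3571. They took 8.86% and 8.03% of the reads. The share was lower in replicate 2, as were *tdh1*, *fba1* and *eno101* singly.

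The thiamine pathway held the second highest coding mRNA. *nmt1* had 165916 and 197645 reads, a level of 16222 and 17906, although it is the standard thiamine-repressed gene of this yeast and the labels give thiamine in the growth medium and the washes. *thi2*, which encodes the thiazole-forming enzyme, followed at 7627 and 6664. The phosphatase gene *pho4* was at 620 and 646 and the transporter gene *thi9* at 403 and 441, and the lowest of the 7 thiamine-repressed genes, *thi4*, at 154 and 160. All 7 exceeded the coding median and 6 stood in the top 10%. Whether thiamine was present at harvest is not given in the sources used here.

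The level of *tdh1*, *nmt1* and *adh1* is shown beside the sequence before their annotated start, because these are the highest 3 coding mRNAs with the letters TATAAA in the window from 250 bases before to 50 bases after that start. The stretches end at or before the annotated start in ASM294v3, the capitals mark TATAAA, and they lie on chromosome II (2807505 to 2807594, plus strand), chromosome III (1838325 to 1838414, plus strand) and chromosome III (1591202 to 1591291, plus strand), in the order given.
tdh1: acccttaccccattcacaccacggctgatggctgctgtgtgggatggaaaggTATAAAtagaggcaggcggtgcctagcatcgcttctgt
nmt1: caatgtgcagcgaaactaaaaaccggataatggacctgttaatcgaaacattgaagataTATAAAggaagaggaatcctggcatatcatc
adh1: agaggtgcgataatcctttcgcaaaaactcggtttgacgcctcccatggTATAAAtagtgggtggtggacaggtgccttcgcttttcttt

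In these stretches TATAAA began 38, 31 and 41 bases before the start. Counted on both strands, the 6 letters were found in 53 of the 100 highest coding genes (53.0%) and in 2458 of all 5110 windows (48.1%), a gap that was not tested. The first match lay a median of 47 bases before the start in the highest 100 genes and 142 bases before it over all genes with a match. These are matches of letters and not measured binding sites.

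Genes for taking up and releasing nitrogen formed the next block. Of the permeases, *isp4* was at 8852 and 10198 and the amino acid transporter gene *isp5* at 3381 and 3900. The proline transporter gene *put4* was at 1862 and 2081, and *cat1*, the lowest of the 11 matched permease genes, at 18.9 and 21.4. The list took 2.25% and 2.65% of the reads, and its 3 highest members were all higher in replicate 2. *ptr2*, the peptide transporter gene, differed most, at 1243 and 2028. Of the 11, 10 exceeded the coding median and 6 stood in the top 10%, with a median of 866, the level of the malate transporter gene *mae1*, which the list also holds.

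Vacuolar proteases were few but abundant. *isp6* was at 12626 and 12167, and carboxypeptidase Y (*cpy1*) at 3078 and 2900, so both stood among the 30 highest coding genes. The list of 5 took 2.33% and 2.23% of the reads, with *fma2* lowest at 195 and 194. The reference names *fma2* as a methionine aminopeptidase, so its place in the list is uncertain. Glutamine synthetase (*gln1*), which fixes ammonium, was at 1901 and 2071, and the ammonium transporter gene *amt1* at 1756 and 1856. Its paralogue *amt3* was at 6.13 and 4.26.

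Some further genes, chosen after their values were seen, had similar levels. The xanthine dioxygenase gene *xan1* was at 2431 and 2649, on a reference model of 1242 bases with no untranslated part. *uro1*, which encodes uricase, was at 2163 and 2276. The amine oxidase gene *cao1* was at 1765 and 1952, and *fil1*, which encodes a GATA-type transcription factor, at 2276 and 2366. Among the 30 highest by the naming rule were also the formamidase-like gene SPAC869.04, at 3359 and 3490, and the urea transporter gene SPAC869.03c, at 2941 and 3002.

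Autophagy genes, by contrast, were at moderate levels. Their 24 matched members had a median of 101, with 18 above the coding median and none in the top 10%. *atg8*, the ubiquitin-like protein of the autophagosome membrane, was at 297 and 336, *atg1*, the kinase that starts the process, at 307 and 305, and *atg12*, the lowest, at 28.4 and 33.3. The whole list took 0.316% and 0.320% of the reads.

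Ribosomal protein mRNAs were at intermediate levels and none was among the 100 highest coding genes. The symbol pattern took 141 genes, of which 3 (*rpp1*, *rpp21* and *rpp40*) encode subunits of RNase P and RNase MRP and not of the ribosome. The 141 took 1.39% and 1.33% of the reads and 3.77% of the summed level, while the 19 glycolysis genes took 9.87% of it. Their median level was 233, with 133 above the coding median and 41 in the top 10%. The highest were *rpl1001* at 879 and 860, *rpl13* at 845 and 737, and *rps2* at 722 and 734. The lowest were *rpl3002*, at 14.2 and 15.9, and *rpl1603*, at 3.52 and 3.56.

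Paralogues of one ribosomal protein could differ widely. In 53 families with more than 1 gene, the highest member exceeded the lowest by a median of 1.86-fold, by more than 2-fold in 23 and by more than 4-fold in 5. The widest was *rpl16*, where *rpl1601* was at 248 and 262 against 3.52 and 3.56 for *rpl1603*, 70.5-fold in replicate 1 and 73.6-fold in replicate 2. In *rpl30*, *rpl3001* was at 202 and 218 and *rpl3002* at 14.2 and 15.9. In 50 of the families, under 10% of the 50-base stretches of any member occur again in the genome, so most of these reads can be told apart. In *rpl10* this was 41.3%.

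The HomolD box, in which the letters CAGTCAC form a core promoter of fission yeast ribosomal protein genes, is shown for the highest 3 with a match. The stretches end at or before the annotated start in ASM294v3, the capitals mark CAGTCAC or its reverse complement, and they lie on chromosome II (2081384 to 2081473, plus strand), chromosome I (1711090 to 1711179, plus strand) and chromosome III (2096037 to 2096126, minus strand), in the order given.
rpl1001: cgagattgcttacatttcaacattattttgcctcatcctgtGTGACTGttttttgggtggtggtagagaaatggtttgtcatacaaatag
rpl13: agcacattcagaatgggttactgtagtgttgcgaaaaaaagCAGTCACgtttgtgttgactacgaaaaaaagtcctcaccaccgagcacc
rps2: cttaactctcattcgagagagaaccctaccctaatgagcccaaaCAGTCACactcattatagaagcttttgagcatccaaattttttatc

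CAGTCAC, on either strand, was found in 126 of 138 ribosomal protein windows (91.3%) and in 241 of all 5110 windows (4.72%). The match began a median of 52.5 bases before the start in the ribosomal protein genes, and 56, 54 and 46 bases before it in the 3 shown. The 126 genes with the letters had a median level of 233, and the 12 without them 258. Of the 100 highest coding genes, which hold no ribosomal protein gene, 8 had the letters and 53 had TATAAA.

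Translation factors stood above the ribosomal proteins. *tef103*, a gene of elongation factor EF-1 alpha, was at 2356 and 2236, and the fungal elongation factor *tef3* at 1608 and 1647. All 14 listed genes exceeded the coding median and 10 stood in the top 10%, with a median of 599. For 5 of them more than 50% of the 50-base stretches occur elsewhere in the genome, so their reads cannot be assigned to single copies with certainty. *tif45*, which encodes the cap-binding protein eIF4E, was the lowest, at 105 and 114.

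Genes of respiration, lipid synthesis and histones were also well represented. All 31 matched nuclear genes of ATP synthase and the respiratory chain exceeded the coding median, 24 stood in the top 10%, and their median was 453. The beta subunit gene *atp2* was at 2589 and 2685, and *atp15*, the lowest, at 161 and 180. All 7 genes of fatty acid synthesis exceeded the coding median, led by the desaturase gene *ole1* at 2868 and 2685. Histones had a median of 1125, with 9 of 11 in the top 10%. The H2B gene *htb1* was at 3049 and 2988, while *cnp1*, the centromeric H3 variant, was at 26.6 and 28.7.

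Stress genes were high in part. Of 19 listed targets of the Sty1-Atf1 pathway, 16 exceeded the coding median and 14 stood in the top 10%, with a median of 567. The peroxiredoxin gene *tpx1* was at 2981 and 2845 and the glycerol-3-phosphate dehydrogenase gene *gpd1* at 2301 and 2227, whereas the sulfiredoxin gene *srx1* was at 27.3 and 22.6. Among chaperones, *hsp9* was at 3584 and 3314 and *hsp16* at 41.6 and 46.1, so the heat shock genes did not share one level.

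**Figure D3:**
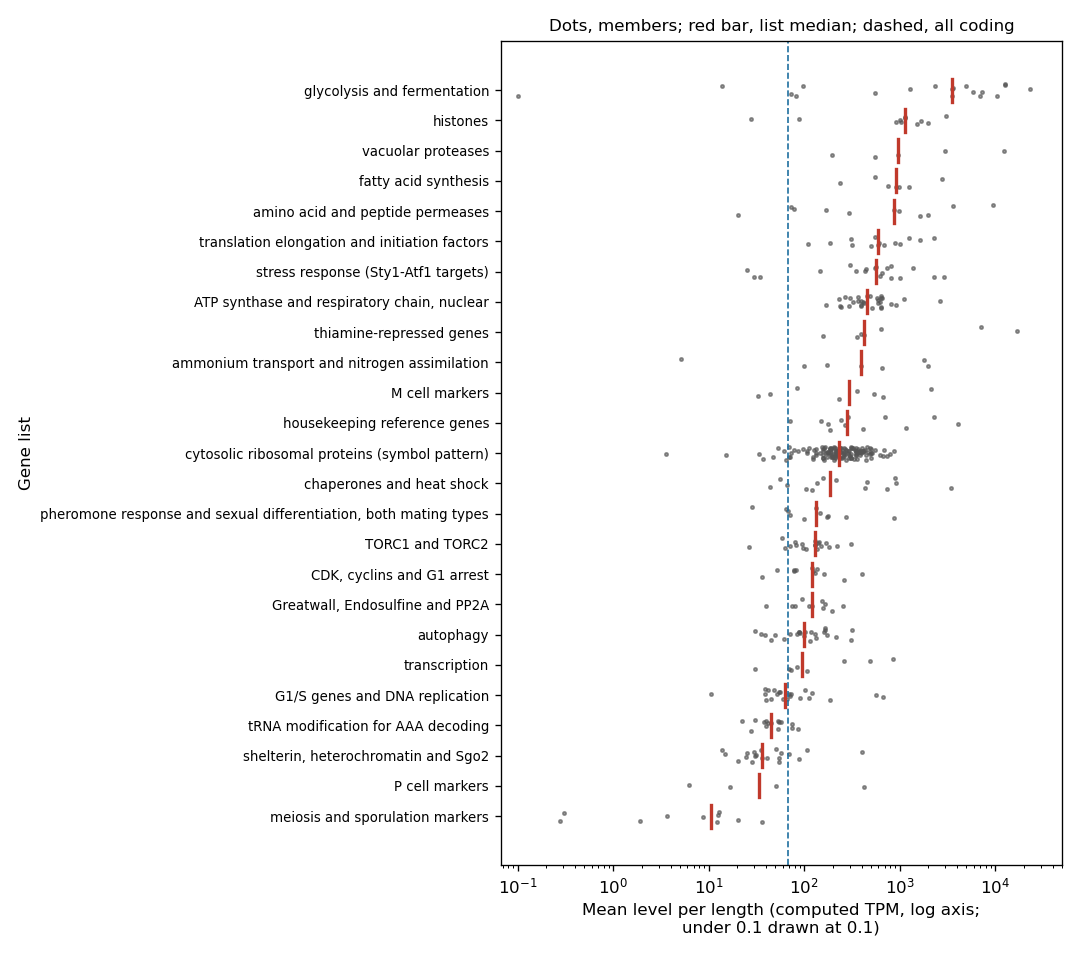
Mean level per length over both WT replicates (computed TPM, log axis) for each member (dots) of 25 gene lists, with the list median (red bar) and the median of all coding genes (dashed line, 67.5). The list medians run from 10.5 for meiosis and sporulation to 3571 for glycolysis and fermentation.

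The Greatwall, Endosulfine and PP2A genes sat far below the highest metabolic genes. *igo1*, which encodes Endosulfine, was at 194 and 201.2. The Greatwall kinase genes *ppk18* and *cek1* were at 163 and 169, and at 91.1 and 98.5. *pab1*, the B55 subunit of PP2A, was at 158 and 155, close to the catalytic subunit gene *ppa1* at 150 and 157. The highest of the 11 genes of this group was the scaffold *paa1*, at 260 and 255.7, and the lowest was *zds1*, at 39.9 and 39.3. None of the 11 stood in the top 10%, although 10 exceeded the coding median.

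The TOR complexes and the cell cycle machinery lay in the same range. The 20 TOR genes had a median of 129, with the GTPase gene *rhb1* highest at 319 and 306 and *bit61* lowest at 24.2 and 29.2. The TORC2 target kinase *gad8* was at 127 and 131. *rum1*, the CDK inhibitor of G1 arrest, was at 133 and 129 and the mitotic cyclin gene *cdc13* at 398 and 409. The 22 genes of the G1/S transition and DNA replication had a median of 63.2, with 10 above the coding median.

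Lower still were the lists of tRNA modification and of telomeres and heterochromatin. The 15 genes of tRNA modification had a median of 45.4, below the coding median. *elp2* and *elp3*, which encode subunits of the Elongator complex, were above it, at 83.0 and 89.0 and at 71.2 and 77.4. *ctu1*, a thiolation enzyme of the wobble uridine, was the lowest, at 23.4 and 21.6. The shelterin and heterochromatin genes had a median of 35.8. The telomere protein gene *rap1* was at 32.2 and 30.5, *sgo2* (shugoshin) at 52.0 and 56.4, *clr2* at 20.3 and 19.8 and *swi6*, the heterochromatin protein HP1, at 55.0 and 54.1. *clr3*, a histone deacetylase gene, was above the coding median, at 107 in both. The envelope protein gene *bqt4* stood apart from them, at 412 and 391, as the one member in the top 10%.

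Lysine codon use differed between the low and the high genes. Lysine is encoded by AAA or AAG, and AAA made up 62.6% of the lysine codons when each coding gene was counted once. Weighted by level, its share in the RNA pool was lower, at 45.0% in replicate 1 and 45.7% in replicate 2. Without the 10 highest genes it was 49.96%. The 4457 genes with at least 10 lysine codons were ranked by level and split into 10 equal groups, and the median gene used AAA for 69.2% of lysines in the lowest group and 45.5% in the highest. In the highest group, 91 genes used AAA for under 20% of their lysines and 4 for over 80%, against 1 and 49 genes in the lowest. Across these genes Spearman's rho of level and AAA share was -0.42, as a description, since genes are not independent replicates and share base composition.

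**Figure D4:**
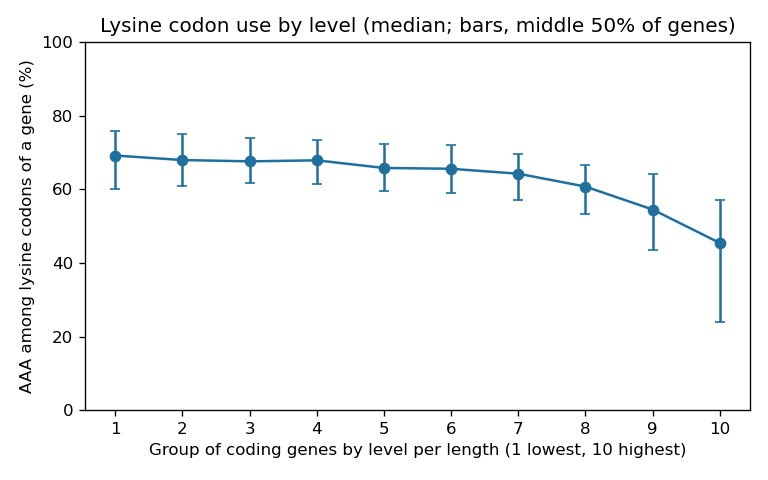
Percent of lysine codons that are AAA per gene, as the median (points) and the middle 50% of genes (bars), for 10 equal groups of coding genes ranked by mean level per length in the WT libraries. The median is 69.2% in the lowest group and 45.5% in the highest.

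The contrast is visible in the coding sequences of *tdh1* and *sgo2*, the highest coding gene and a low one whose protein the study followed. Each stretch is the 120 bases of highest lysine content that lie in a single exon, with lysine codons in capitals, on chromosome II (2807952 to 2808071, plus strand) and chromosome I (3716068 to 3716187, plus strand) of ASM294v3.
tdh1: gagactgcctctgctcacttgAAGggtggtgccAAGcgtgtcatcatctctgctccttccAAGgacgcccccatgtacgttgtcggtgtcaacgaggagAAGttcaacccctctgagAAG
sgo2: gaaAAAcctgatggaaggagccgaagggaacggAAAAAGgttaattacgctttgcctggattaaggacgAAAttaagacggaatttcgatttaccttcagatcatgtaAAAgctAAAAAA

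All 5 lysine codons of the *tdh1* stretch are AAG, and over its whole coding sequence AAA was used for 0% of lysines, as in *fba1*, *adh1*, *pyk1* and *pgk1*. *sgo2* used AAA for 83.7% of its lysines, *clr2* for 80%, *clr3* for 76.7%, *rap1* for 74.1% and *ctu1* for 95.5%. *cgi121* was at 75% and *gad8* at 74.4%. Other genes that the study discusses followed with no clear gap, with *elp4* at 72.7%, *ctu2* at 72%, *ccq1* at 70.9% and *swi6* at 67.5%. Further down, *elp3* was at 64.5%, *sua5* at 60% and *trm9* at 56.2%. *trm112* and *pcc1* have fewer than 10 lysine codons and were given no percent. The study names Ccq1 and Swi6 among proteins of reduced AAA use, and gives codon use as z-scores, another measure. By the percent used here, both genes lay above the median of all genes, 64.3%. *krs1*, which encodes a lysine tRNA ligase, was at 41.7%. A high level did not always go with AAG: *isp6* used AAA for 52.6%, *isp4* for 48.3% and SPAC869.04 for 71.4%. The glycolysis genes had a median of 5.26% and the ribosomal protein genes of 13.3%, beside 64.3% for the median of all genes.

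The 100 highest coding genes differed from the others in one more feature of their structure. Of them, 88 have a single coding exon, whereas 53.3% of all 5111 coding genes do. Their median coding length was 1172 bases, against 1137 for all.

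The pheromone and pheromone receptor mRNAs followed the labelled mating type. Cells of the h- type are M cells, which secrete M-factor and sense P-factor. *mfm1*, which encodes an M-factor precursor, was at 2336 and 1902, *mfm2* at 656 and 694 and *mfm3* at 580 and 503. *mam2*, the P-factor receptor, was at 375 and 341, and *mam1*, the M-factor exporter, at 230 and 235. Of 8 listed M cell markers, 6 exceeded the coding median. The lowest were *ste6*, at 42.9 and 44.5, and *sxa2*, at 33.2 in both libraries. The reference names *ste6* as a RasGEF, so its place in the list is uncertain. *map2*, which encodes P-factor, had 40 and 30 reads, a share of 0.000270% in replicate 1 (Wilson 95% interval 0.000199 to 0.000368%) and a level of 7.29 and 5.06. *map3*, the M-factor receptor of P cells, was at 15.6 and 17.8. *map4*, an agglutination protein gene listed with the P cell markers, was at 52.6 and 49.3, above *ste6* and *sxa2*. Of the 4 P cell markers, only the protease gene *sxa1* exceeded the coding median, at 423 and 428. These are bulk RNA levels, in which fewer cells of a type and less RNA per cell cannot be told apart.

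The ends of the 3 M-factor genes are shown because the 3 genes encode the same kind of peptide. Each line is the last 60 coding bases with the intron removed, capitals mark the 16 positions where the genes differ, and the spans lie on chromosome I (4917168 to 4917298, plus strand), chromosome I (2913008 to 2913109, minus strand) and chromosome II (700430 to 700556, plus strand) of ASM294v3.
mfm1: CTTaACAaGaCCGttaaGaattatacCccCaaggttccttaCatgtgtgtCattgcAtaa
mfm2: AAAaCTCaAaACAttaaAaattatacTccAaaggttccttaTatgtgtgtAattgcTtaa
mfm3: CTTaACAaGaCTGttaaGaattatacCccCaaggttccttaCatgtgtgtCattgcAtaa

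Over these 60 bases *mfm1* and *mfm3* differ at 1 position, and *mfm1* and *mfm2* at 15. In none of the 3 genes does any 50-base stretch occur again in the genome (0%). Genes of mating used by both types were at intermediate levels: *mei2*, which encodes an RNA-binding protein that starts meiosis, was highest at 862 and 883, and the transcription factor gene *ste11* was at 157 and 195. The 10 markers of meiosis and sporulation had a median of 10.5, and none exceeded the coding median. The highest was *mei4* at 36.4 and 36.1, and *mei3*, the inducer of meiosis, and *spo6* were below 1 in both libraries.

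By identifier class, the SPA, SPB and SPC identifiers, which are nearly all protein-coding, took 95.5% and 95.1% of the reads with 5150 of the 7001 identifiers. SPNCRNA identifiers (1530) took 2.08% and 2.21%, and the 37 mitochondrial SPMIT identifiers 2.03% and 2.26%. SPSNORNA identifiers (53) took 0.222% and 0.191%, and the 7 SPSNRNA identifiers 0.189% and 0.185%. Nuclear tRNA genes (171) had 66 and 73 reads in all, and none reached 10 reads in both libraries. The 49 SPRRNA identifiers had 176 reads in replicate 1 and 1855 in replicate 2. The Ribo Zero kit named in the study's methods removes ribosomal RNA, but whether those methods cover these libraries is not given. The sequence of SPRRNA.49, which held most reads of this class, is repeated in the genome (100%). How reads on repeated sequence were counted is not given in the sources used here. The cause of the low SPRRNA counts was not tested. Chromosome I held 46.2% and 46.1% of the reads, with 44.8% of the matched identifiers.

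The non-coding reads came from a few transcripts. Of the SPNCRNA reads, 60.3% fell on 5 identifiers, and 800 of the 1530 were detected. Among these 5, SPNCRNA.1095 took 0.0955% of all reads in replicate 1 and 0.219% in replicate 2. Its sequence is repeated in the genome (100%), and it lies near a ribosomal RNA gene. The SPNCRNA share and its difference between the replicates include these reads, and their origin was not tested. *prl53*, a polyadenylated non-coding RNA (SPNCRNA.53), took 0.535% and 0.573% of all reads, with 18.0% of its length shared with the exon of SPAC27E2.11c on the same strand. *srp7*, the 7SL RNA of the signal recognition particle, took 0.298% and 0.258%, which at its short length is a level of 21128 and 18437, close to *tdh1*. *mrp1*, the RNA of RNase MRP, took 0.205% and 0.214%, and *rrk1*, that of RNase P, 0.0979% and 0.0873%. Whether such short structured RNAs were recovered as well as mRNA is not given in the sources used here.

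Most other SPNCRNA identifiers overlap coding genes. Of 1431 matched to the reference, 757 overlap a coding exon on the opposite strand only, 188 on the same strand and 486 none. The TruSeq Stranded kit of the methods keeps the strand, but whether strand was used in counting is not given in the sources used here. Reads of these 757 and of their partners may therefore not be fully separated. The 757 took 0.607% and 0.576% of the reads. The 188 on the same strand took more, 0.643% and 0.682%, and there strand cannot tell the overlapping reads apart.

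Small nucleolar RNA reads also came from few genes. *snR30* held 0.117% and 0.102% of all reads and *snR95* 0.0433% and 0.0362%, and together they made up 72.0% of the SPSNORNA class. Among the SPSNRNA identifiers *snu3* and *snu32*, which the reference names as copies of the U3 small nucleolar RNA, made up 95.5% of the reads. The spliceosomal *snu6* had 33 and 20 reads. In mitochondria, SPMIT.01 held 0.727% and 0.779% of all reads, SPMIT.11 0.597% and 0.653%, and the leading 5 identifiers 97.7% of the class.

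The replicates were close but not identical. For the 5035 identifiers whose mean reached 100 reads, the log2 ratio of replicate 2 to replicate 1 had an SD of 0.15, where counting error alone would give 0.08. Only 4 of them differed more than 2-fold. The median absolute log2 ratio was 0.07.

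**Figure D5:**
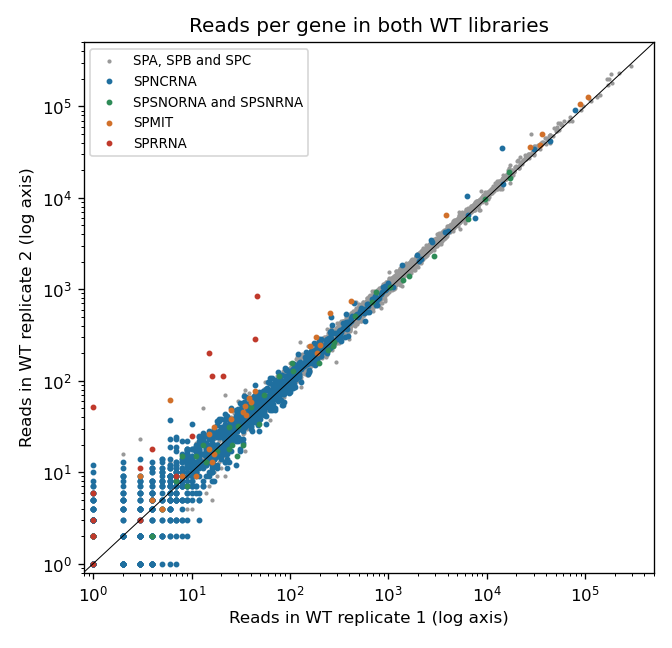
Reads per gene in WT replicate 1 (x) and replicate 2 (y), both on log axes, coloured by identifier class, with the line of equal reads. Most genes lie along the line, and SPRRNA identifiers (red) lie above it, as their total was 176 and 1855 reads.

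The genes that differed most between the replicates, among those whose mean reached 1000 reads, included several non-coding RNAs. SPNCRNA.1095 had 14119 and 35220 reads, a log2 ratio of 1.20, and SPNCRNA.1094 had 6238 and 10574 reads (0.64). In the reference they are next to each other and beside the ribosomal RNA gene SPRRNA.44 on chromosome III, and 100% of the 50-base stretches of both occur again in the genome. SPRRNA.44 itself had 15 and 200 reads. The part of repeated sequence and of ribosomal RNA in this difference was not tested. *ptr2* (28336 and 49869 reads, 0.70), SPMIT.07 (3849 and 6476 reads, 0.63) and the phosphate transporter gene *pho84* (1003 and 1561 reads, 0.52) were also higher in replicate 2. Lower in replicate 2 were SPNCRNA.1626, with a log2 ratio of -0.49, *sno12* (-0.47), the thioesterase gene *the4* (-0.45), SPBPJ4664.02 (-0.37) and SPBPB21E7.08 (-0.35).

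At the other end, 47 nuclear coding genes had 0 reads in both libraries. In replicate 1 a count of 0 allows a share of up to 2.03e-05% (3 reads), for counting error only. For 7 of the 47 the exons are wholly covered by another gene model on the same strand, as holds for 12 of all 5111 coding genes (0.235%), and for 12 others all 50-base stretches occur again in the genome. Of the remaining 28, 14 are covered in part on the same strand or repeated in part, 8 are covered only on the other strand, and 6 are neither. For the repeated genes and these last groups the share over all coding genes is not given here, so no excess is read from their counts. *mzt1*, which encodes a spindle organiser, was covered over 35.5% and *ost5*, a subunit of oligosaccharyltransferase, over 55.4% of its exons on the same strand, and *pdc102* over 100% on the other strand. *mzt1* and *ost5* were chosen after their values were seen. These genes are listed at 0, and how reads on overlapping or repeated sequence were counted is not given in the sources used here.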

How the data were processed

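The RNAseq libraries were made by the authors, and the study's methods name Ribo Zero and TruSeq Stranded kits. The study's methods and the submitters' processing notes give FastQC 0.11.8, Trimmomatic 0.38 where needed, HISAT2 2.1.0, featureCounts of Subread 1.6.3, and DESeq2, and name the build ASM294v2. The extraction reagent differs between the labels and the methods. Each deposited column holds a signal, reads counted per gene and scaled by the authors with a DESeq2 size factor. Divided by the value of 1 read, 100% of them came out whole within 0.01, and these whole reads were used. The 2 other sample columns of the table, from the mutants, were not used.

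Shares are percent of all reads on genes. Computed TPM used exon lengths of ASM294v3 (RefSeq), to which 6852 of the 7001 identifiers were matched, and mitochondrial genes have none. The files hold no coordinates, so positions are those of ASM294v3. No test between groups was run, since a single group of 2 replicates is described, and no p-value is given. Intervals are Wilson 95% and cover counting error only.

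Genes were named as the 30 of highest share, the 30 coding genes of highest level, the top 5 of each class, the 3 highest and 2 lowest of each list, the largest differences between replicates, and genes the study discusses, and the text gives those that carry each description. The lists, matched by symbol, were chosen with earlier results of these data known. Alternatives were each replicate left out, other totals, reads or coding length in place of exon length, and other read minimums. The recovery of reads was tested on simulated data. Calculations used Python 3.11.15 with pandas 2.3.3, numpy and scipy 1.17.1.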

Additional observations from a re-analysis of the deposited data

How the results depend on the processing

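Leaving out either replicate moved no share by more than the SD between the replicates, which holds by construction with 2 of them. It turned the order of SPNCRNA (2.08% and 2.21%) and SPMIT (2.03% and 2.26%), and of permeases (2.25% and 2.65%) and vacuolar proteases (2.33% and 2.23%). The SPNCRNA share includes the repeated SPNCRNA.1095, at 0.0955% in replicate 1 and 0.219% in replicate 2. The order without this identifier was not tested. Computed per length in place of reads, the percent on SPA, SPB and SPC identifiers moved from 95.3 to 91.6, on SPNCRNA from 2.14 to 5.48, on SPSNORNA from 0.207 to 1.52 and on SPSNRNA from 0.187 to 1.36. The share of these classes therefore depends on the unit. Among the SPNCRNA genes of most reads, *srp7* has 255 bases and *mrp1* 399, but *prl53* has 1852. The total per length also leaves out the mitochondrial genes, which have no exon length here. With mitochondrial and ribosomal RNA genes left out of the total, the SPA, SPB and SPC share was 97.4% and that of SPSNRNA 0.191%. Among nuclear coding genes only, the first 10 and 100 genes held 12.4% and 35.3% of the reads, and per length the first 10, 100 and 1000 held 13.0%, 34.7% and 71.9%. With nuclear coding genes as the total, thiamine-repressed genes took 1.96%, vacuolar proteases 2.39% and ribosomal proteins 1.42%. The AAA share in the RNA pool was 50.3% when weighted by reads and 49.96% without the 10 highest genes, in place of 45.4%. The SD of the log2 ratio between replicates was 0.25 at a mean of at least 10 reads and 0.094 at 1000. Detected identifiers numbered 6369 at 1 read and 5010 at 100. With coding length in place of exon length, 23 of the 30 highest coding genes were the same, and all 25 list medians kept their side of the coding median. No paired analysis was possible because a single group is described. With 2 replicates no spread is known precisely.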
